A study of Mus musculus with 4 samples.

Results

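The insulin-like growth factor binding proteins are secreted proteins that hold IGF1 and IGF2 outside the cell, and were followed here in mouse embryonic fibroblasts (MEFs) at low and high cell density. The 7 genes Igfbp1 to Igfbp7 were taken by symbol out of 27745 gene names on the array, and all 11 of their probes, of 41174 probes in all, are shown separately. The family was chosen by the density effects and genotype differences measured on these same arrays, so the values below describe it and no test was made of them.

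The cells were MEFs from C57BL/6J mice whose genotype is labelled Lats2-/- (KO) or Lats2+/+ (WT). Lats2 is a kinase of the Hippo pathway, which senses crowding. All cells grew in DMEM with 10% inactivated fetal bovine serum and antibiotics. The low density culture was sampled at 48 hours, before confluence, and the high density culture after 3 to 5 days, so that time in culture changed together with density. For each genotype both RNAs were hybridised together on 2 arrays with the Cy3 and Cy5 dyes exchanged, which gave 4 arrays. Each genotype and density thus had 1 replicate, the spread given below (SD over the 2 arrays of a pair) is technical, and no p-value is given. The labels name neither the embryos nor the number of cultures behind each RNA, and the source names spell the gene LAT2, unlike the genotype field (Lats2), which was followed.

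Facts of the whole series bear on every genotype comparison. Lats2 itself was brighter in labelled KO than in labelled WT at 3 of its 4 probes at both densities, which goes against the label. The fourth, A_52_P425064, was lower in labelled KO, by -0.63 at low density and 2.39-fold at high density, as the label would have it. On chromosome 14 (mm8, minus strand) the 3 lie between 56644080 and 56645305 and the fourth starts at 56676512. Log2 ratios of labelled KO over labelled WT ran from -0.63 to 1.39 at low and from -1.26 to 1.49 at high density, so genotype names are used here as labels only. The study presents a western blot of Lats2 protein as evidence of the knockout in its Lats2 KO MEFs. The blot is not analysed here. Which part of the gene is deleted is not given in the sources used here, so a probe outside it would check nothing. Both WT arrays were on 1 slide and the KO arrays on 2 others, so slide and scan cannot be told apart from genotype. The scanner software called 52.8% to 67.7% of features in a channel well above background, that is, brighter than their surroundings, and called no feature saturated. Precision is limited by the number of arrays. Over tested probes, the SD of single arrays about their pair mean was 0.0987 for the density effect in WT and 0.143 for that in KO. For the genotype ratio it was 0.113 at low and 0.149 at high density (log2 scale). This measure differs from the SD over the 2 arrays of a pair, which is given after each ± below.

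Each of the 6 classical binding proteins folds around a conserved cysteine-rich N-terminal domain and binds IGFs tightly enough to keep them from the IGF1 receptor. Proteases such as PAPP-A and the HTRA enzymes cut the binding proteins and release the growth factor, and some binding proteins also attach to the matrix or to the cell surface. Igfbp7 shares the N-terminal domain but binds IGFs weakly. In cultured fibroblasts these proteins are among the main secreted modulators of IGF signalling.

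The genes lie in part as neighbours. On mouse genome build mm8, as the array annotation gives it, the Igfbp2 probe (chr1:72785310-72785369, plus strand) and the nearer Igfbp5 probe (chr1:72791462-72791521, minus strand) were 6.093 kb apart. The Igfbp1 probe (chr11:7102442-7102501, plus strand) and the nearest Igfbp3 probe (chr11:7106594-7106653, minus strand) were 4.093 kb apart. In RefSeq no annotated gene lay between the members of either pair, and each pair is transcribed toward each other. Igfbp4 lay further along chromosome 11, Igfbp6 on chromosome 15 and Igfbp7 on chromosome 5. Whether a probe reads an exon, an intron or a UTR was not assigned.

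The promoter sequences of the 3 genes with the largest density effects are shown first, because these genes carry most of what follows. RefSeq gave 8 promoters for the 7 genes on assembly GRCm38.p6. The 250 bases before the start of transcription are printed 5′ to 3′ on the strand of the gene, and capitals mark a match to a searched motif. Igfbp5 is at chr1:72874866-72875115 (minus strand), Igfbp3 at chr11:7213924-7214173 (minus strand) and Igfbp4 at chr11:99040994-99041243 (plus strand).
Igfbp5: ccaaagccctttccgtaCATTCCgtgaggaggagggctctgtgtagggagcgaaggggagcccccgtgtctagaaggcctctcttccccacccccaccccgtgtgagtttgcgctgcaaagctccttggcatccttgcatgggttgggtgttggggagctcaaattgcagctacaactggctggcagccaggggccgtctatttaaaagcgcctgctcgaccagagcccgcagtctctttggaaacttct
Igfbp3: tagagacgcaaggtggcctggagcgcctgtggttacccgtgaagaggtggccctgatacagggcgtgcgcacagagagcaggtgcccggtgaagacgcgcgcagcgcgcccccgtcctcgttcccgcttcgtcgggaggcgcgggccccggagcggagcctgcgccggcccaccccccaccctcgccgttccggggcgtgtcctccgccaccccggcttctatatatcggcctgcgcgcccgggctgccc
Igfbp4: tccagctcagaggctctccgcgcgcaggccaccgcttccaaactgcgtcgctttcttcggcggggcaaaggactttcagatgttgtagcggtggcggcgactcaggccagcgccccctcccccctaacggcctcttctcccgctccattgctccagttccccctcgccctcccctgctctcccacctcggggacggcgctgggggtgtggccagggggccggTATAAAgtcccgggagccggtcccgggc

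Both strands were searched from 250 bases before to 50 bases after the start for 3 motifs. GGAATG is bound by TEAD factors, the DNA-binding partners of YAP and TAZ. GTAAACA is bound by FOXO factors, which insulin and IGF signalling restrain, and TATAAA is the TATA box. Among the 8 promoters the TEAD motif was found in that of Igfbp5 alone, 233 bases before the start and on the opposite strand, so that it is printed above as CATTCC. It is present in 14.7% of the 32851 promoters of the table. The exact string TATAAA was found 28 bases before the start of Igfbp4 on its own strand. In Igfbp6 the string lay 148 bases before the start on the opposite strand, and 13.6% of all promoters held it. Whether it serves there as a TATA box was not tested, and variants of it were not searched. The FOXO motif, as the exact string GTAAACA, was found in 0 of the 8 promoters and in 3.65% of all. Other sequences that FOXO factors bind were not searched. A match describes the letters only.

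Igfbp5, which binds extracellular matrix and is known for its part in bone and muscle, rose with density in cells labelled WT and fell in cells labelled KO. At probe A_52_P281702 the log2 normalised intensity in WT was 7.52 and 7.14 at low density and 13.72 and 13.70 at high density. In KO it was 10.72 and 10.97 at low density and 9.41 and 9.55 at high density. Before normalisation the signal less background in WT was 67.5 and 157 at low density and 17763 and 7078 at high density. The 4 states did not overlap, and the order of the levels was WT high, KO low, KO high and WT low. The log2 ratio of high over low density was 6.38 ± 0.25 (SD, 2 arrays) in WT, an 83.5-fold rise (7.15 with the scanner software's processed signals), and -1.36 ± 0.08 in KO, a 2.57-fold fall. The density effects differed by -7.74 ± 0.33 (KO minus WT), and by -8.63 with the processed signals.

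Between genotypes Igfbp5 therefore changed sides with density. Its signal was 11.4-fold higher in labelled KO at low density (log2 ratio 3.52 ± 0.45, and 4.26 with the processed signals) and 18.7-fold lower at high density (log2 ratio -4.23 ± 0.12). The other Igfbp5 probe, A_51_P204153, at chr1:72793999-72794058 on the minus strand, showed the same directions in smaller size. Its log2 intensity in WT was 6.32 and 6.05 at low density, not well above background, and 7.38 and 7.17 at high density. In KO it was 6.57 and 6.72 at low density and 6.17 and 6.41 at high density, the last state being well above background on 1 of 2 arrays. This probe rose at least 2.12-fold in WT, while its log2 ratio in KO was -0.36 ± 0.07, under the 2-fold limit used for a call, and -1.23 with the processed signals and in the series matrix. At low density its signal in KO was at least 1.38-fold higher than in WT, where it was at background, so the size is not measured (log2 ratios of 0.46, 1.46 at an offset of 0 and 2.46 with the processed signals). Its high density difference between genotypes was -0.98 ± 0.32, and it passed 2-fold at an offset of 0 (-2.02), with the processed signals (-2.77), with median centring (-1.03) and without replicate 2 (-1.21).

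**Figure D1:**
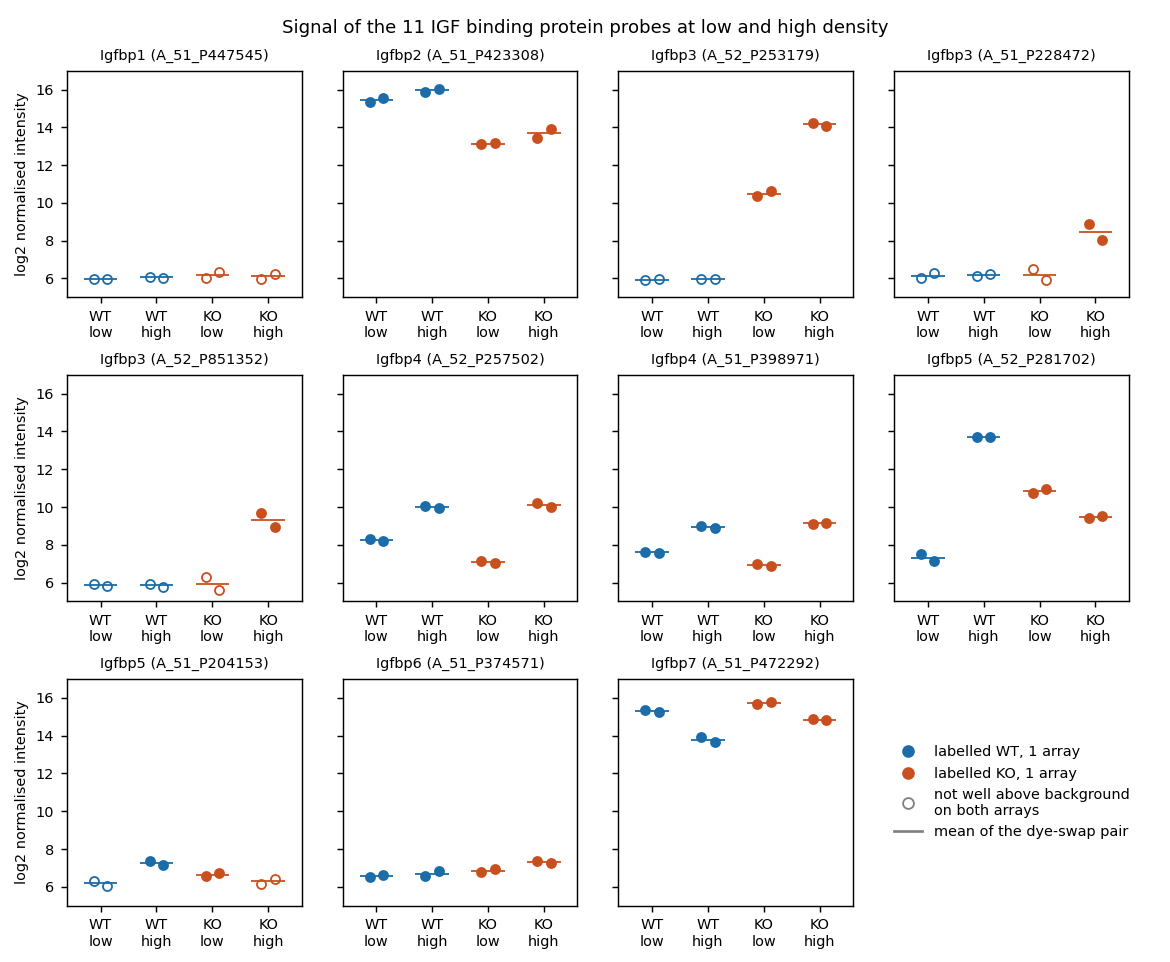
Log2 normalised intensity (y axis) of each of the 11 probes in the 4 states (x axis, labelled WT and KO at low and high density), with 1 point per array, the mean of the dye-swap pair as a line, and open points where fewer than both arrays put the probe well above background. Igfbp5 at A_52_P281702 runs from 7.14 in WT at low density to 13.72 in WT at high density, and the Igfbp3 probes stand above background in KO alone.

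Igfbp3, the main carrier of IGFs in serum and partner of the acid-labile subunit, was measured above background in cells labelled KO alone. At probe A_52_P253179 the log2 intensity in KO was 10.34 and 10.61 at low density and 14.23 and 14.08 at high density. In WT it was 5.91 and 5.95 at low density and 5.98 and 5.97 at high density, not well above background in any channel. Signal in KO rose 12.8-fold with density (log2 ratio 3.68 ± 0.29). It was at least 19.8-fold higher than in WT at low density and at least 245-fold higher at high density. These lower bounds set the dim side to the faintest signal that passed the background call in the same channel. Before normalisation the signal less background in WT was between 7.05 and 15.7 over the 4 channels, against 977 to 34672 in KO.

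The other 2 Igfbp3 probes also rose with density in KO, but at low density they were too dim in both genotypes to be compared. Probe A_51_P228472, whose position spans chr11:7108469-7109478, gave log2 intensities in KO of 6.47 and 5.93 at low density and 8.88 and 8.06 at high density. Its log2 ratio in KO was 2.26 ± 0.20, with the low density signal well above background on 1 of 2 arrays, and 4.41 with the processed signals. In WT the probe stayed between 6.01 and 6.27, not well above background, and the high density signal in KO was at least 4.75-fold higher. Probe A_52_P851352, at chr11:7111815-7111874, gave 6.31 and 5.58 at low density and 9.66 and 8.95 at high density in KO. Because its low density signal was not well above background, the rise in KO was at least 8.66-fold, and the excess over WT at high density was at least 8.52-fold. In WT this probe lay between 5.79 and 5.91.

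Igfbp4, an inhibitory binding protein that PAPP-A cuts, rose with density in both genotypes. At probe A_52_P257502 (chr11:98868110-98868169, plus strand) the log2 intensity in WT was 8.29 and 8.21 at low and 10.07 and 9.96 at high density. In KO it was 7.13 and 7.01 at low and 10.21 and 10.00 at high density. The genotypes were thus apart at low density and overlapped at high density. The log2 ratio of high over low density was 1.77 ± 0.03 in WT and 3.03 ± 0.07 in KO, a 3.41-fold and an 8.17-fold rise, and the KO value was 3.76 with the processed signals. The density effect was larger in KO by 1.26 ± 0.04, and the low density signal was 2.26-fold lower in KO (log2 ratio -1.18 ± 0.03, which is -0.93 without scaling between arrays). At high density the ratio of KO over WT was 0.08 ± 0.08.

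The second Igfbp4 probe, A_51_P398971 (chr11:98864367-98864426), rose in both genotypes as well. It gave 7.64 and 7.56 at low and 8.97 and 8.87 at high density in WT. In KO it gave 6.98 and 6.86 at low and 9.10 and 9.16 at high density. Its density effects were 1.32 ± 0.01 in WT and 2.21 ± 0.14 in KO on the log2 scale. The difference of 0.88 ± 0.14 between them, the genotype ratio of -0.68 ± 0.03 at low density and that of 0.21 ± 0.12 at high density were all under 2-fold. With the processed signals the KO density effect was 3.01, the difference 1.36 and the low density genotype ratio -1.16, and at an offset of 0 the difference was 1.16.

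Igfbp2, a binding protein of fetal tissues that also contacts integrins, differed by genotype and little by density. Its log2 intensity in WT was 15.32 and 15.56 at low and 15.86 and 16.05 at high density. In KO it was 13.12 and 13.14 at low and 13.45 and 13.90 at high density. Every KO value lay below every WT value. The signal was 4.93-fold lower in KO at low density (log2 ratio -2.30 ± 0.16) and 4.86-fold lower at high density (-2.28 ± 0.19). Its density effects, 0.52 ± 0.04 in WT and 0.54 ± 0.30 in KO, were under 2-fold and differed by 0.02 ± 0.34. Its convergent neighbour Igfbp5, by contrast, was higher in KO at low density and lower at high density.

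Igfbp7, the weak IGF binder found in blood vessel walls and stroma, was the member that fell with density in both genotypes. Its probe A_51_P472292 (chr5:78424105-78424164, minus strand) gave 15.37 and 15.28 at low and 13.92 and 13.66 at high density in WT. In KO it gave 15.67 and 15.81 at low and 14.86 and 14.84 at high density. The log2 ratio was -1.53 ± 0.11 in WT, a 2.90-fold fall, and -0.88 ± 0.11 in KO, which is under 2-fold but -1.55 with median centring. At high density the signal was 2.09-fold higher in KO (log2 ratio 1.06 ± 0.17), a call that was lost without replicate 2 (0.95), with median centring (0.86) and with quantile normalisation (0.98). At low density the ratio was 0.41 ± 0.17.

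Igfbp6, which prefers IGF2 over IGF1, showed no 2-fold difference, and Igfbp1, a liver protein under insulin control, was too dim to be compared. Igfbp6 (A_51_P374571, chr15:101977366-101977426, plus strand) gave 6.54 and 6.64 at low and 6.56 and 6.84 at high density in WT, against 6.78 and 6.94 at low and 7.35 and 7.26 at high density in KO. All 4 of its log2 ratios for density and genotype lay between 0.11 and 0.60, and the genotype ratio at high density was 1.08 with the processed signals. Igfbp1 was not well above background in any of the 8 channels, so it entered no comparison. Its log2 intensity ran from 5.97 to 6.33. With the processed signals its ratios were -1.25 for density in KO and 1.48 for genotype at low density, from signals at background, so neither size is measured.

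**Figure D2:**
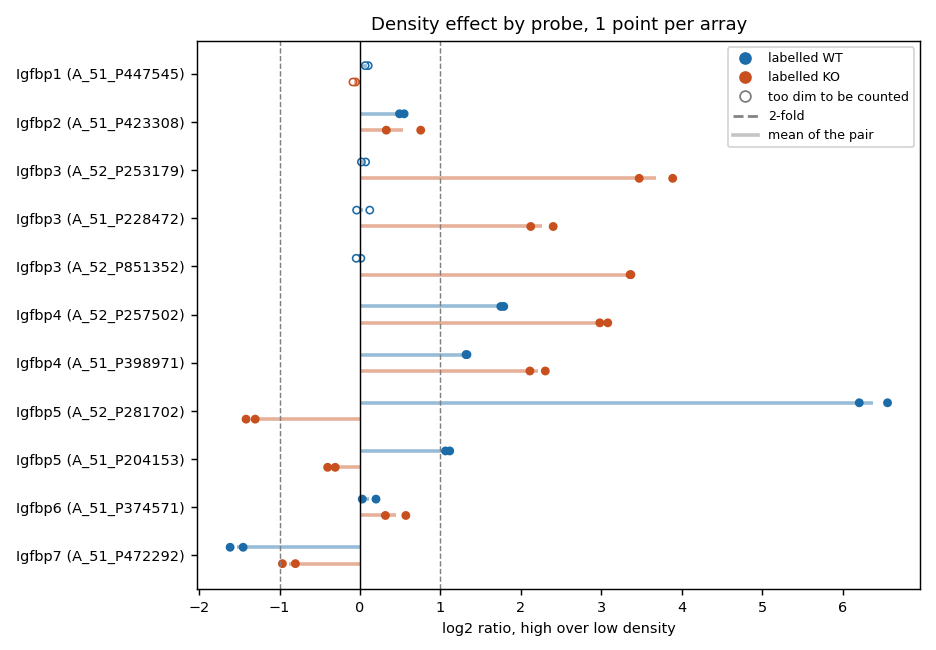
Log2 ratio of high over low density (x axis) for each probe (y axis), 1 point per array, with the pair mean as a bar, dashed lines at 2-fold and open points for probes too dim to be counted. The Igfbp5 probes lie on opposite sides of 0 in the 2 genotypes, and the Igfbp3 probes rise in KO while they are too dim to be counted in WT.

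A probe was called where the mean log2 ratio of the pair was 1 or more in either direction and both arrays gave the same direction. It entered a comparison where both arrays put it well above background in at least 1 of the states compared. For the difference of the density effects this had to hold within each genotype. For the density effect in WT, 7 of the 11 probes entered, of which 4 were called higher (Igfbp4 and Igfbp5, both probes each) and 1 lower (Igfbp7). Over all 22591 tested probes 7.61% were called higher and 5.72% lower. In KO 10 probes entered, of which 5 were called higher (3 of Igfbp3 and 2 of Igfbp4) and 1 lower (Igfbp5), beside 5.9% higher and 3.73% lower of all tested. Since the family was chosen on these contrasts, nothing is read from the counts against their background.

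The difference of the density effects could be taken for 7 probes. The Igfbp4 probe A_52_P257502 was called higher in KO and both Igfbp5 probes were called lower, beside 3.78% called higher and 4.22% lower of all tested. The Igfbp3 probes did not enter, being too dim in WT at both densities. At low density 8 probes entered the comparison of genotypes. The Igfbp3 probe A_52_P253179 and the Igfbp5 probe A_52_P281702 were called higher in KO, and Igfbp2 and the Igfbp4 probe A_52_P257502 lower, beside 6.86% and 7.07% of all tested. At high density 10 probes entered, of which 4 were called higher (3 of Igfbp3, and Igfbp7) and 2 lower (Igfbp2 and the Igfbp5 probe A_52_P281702), beside 6.41% and 6.62% of all tested.

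Over all 11 probes, dim ones included, the median log2 ratio was 0.11 for density in WT and 0.54 in KO, beside -0.00 over the whole array in both. The median difference of the density effects was 0.65 beside 0.00. It counts 4 probes too dim to be tested for this difference, and was 0.33 with 1 probe a gene. The median genotype ratio was 0.22 at low and 0.21 at high density, beside 0.01 at either density over the whole array. These medians moved with the processing, over the alternatives from 0.10 to 0.45 for density in WT (0.20 without replicate 1), 0.44 to 0.82 in KO, 0.33 to 0.76 for the difference, 0.22 to 0.59 for genotype at low and 0.08 to 0.46 at high density. The probes spread in both directions, from -1.53 to 6.38 for density in WT and from -4.23 to a lower bound of 7.94 (Igfbp3) for genotype at high density.

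**Figure D3:**
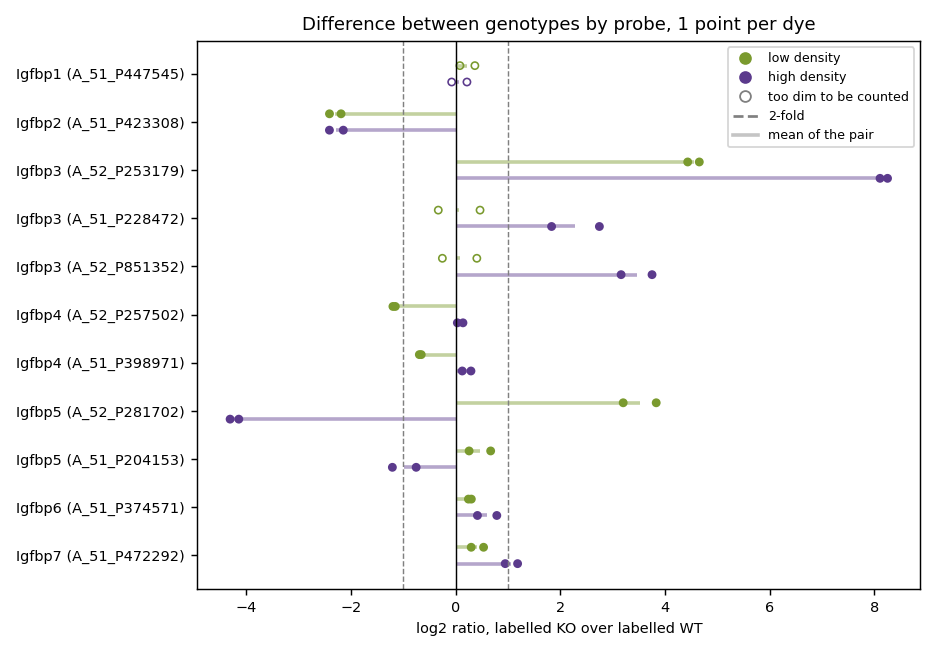
Log2 ratio of labelled KO over labelled WT (x axis) for each probe (y axis) at low and high density, 1 point per dye, with the pair mean as a bar, dashed lines at 2-fold and open points for probes too dim to be counted. Igfbp2 lies below 0 at both densities, Igfbp3 at A_52_P253179 above 0 at both, and Igfbp5 at A_52_P281702 crosses from 3.52 to -4.23.

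The other genes of the IGF pathway were taken as 4 lists of 26 genes, 25 of them on the array, each by its brightest probe. For density in WT 19 were tested, of which 7 were called higher and 2 lower, beside 7.61% and 5.72% of all tested probes. In KO 18 were tested, of which 5 were called higher and 1 lower, beside 5.9% and 3.73%. Both ligands rose with density in both genotypes, as Igfbp4 did. Igf1 gave log2 intensities of 8.35 and 8.28 at low and 12.53 and 12.65 at high density in WT, and of 11.15 and 11.18 at low and 13.42 and 13.28 at high density in KO. Its log2 ratios were 4.27 ± 0.14 in WT and 2.18 ± 0.11 in KO, and it was higher in KO at low density by 2.85 ± 0.07. Igf2 rose by 2.85 ± 0.19 in WT and 2.23 ± 0.12 in KO, and was lower in KO by log2 ratios of -1.19 at low and -1.81 at high density.

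The receptors moved less. Igf1r, which signals, had log2 density ratios of -0.93 in WT and 0.01 in KO, and Igf2r, which clears IGF2, of 0.78 and 0.60. Among the substrates and adaptors only Irs1, the main docking protein of the receptor, was called for density, rising 2.63-fold in WT. Irs1 was higher in KO at both densities (2.10 and 1.57), as was the adaptor Grb14 (1.41 and 1.95).

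Proteases that cut the binding proteins, and their inhibitors, were called in both directions. Htra3, a serine protease, rose with density in both genotypes (1.66 and 1.75). Its relative Htra1 rose in KO alone by the 2-fold limit (1.35 ± 0.16, against -0.48 ± 0.18 in WT), and the difference of the density effects was 1.84 ± 0.01. Pappa, the protease of Igfbp4, was higher in KO at low density by 1.37. Timp1, a metalloprotease inhibitor, fell in WT (-3.59 ± 0.35) and was under 2-fold in KO (-0.58 ± 0.23), with a difference of 3.01 ± 0.58. Timp1 was lower in KO at low density (-2.75 ± 0.09), against 0.26 ± 0.67 at high density. Igfals, which encodes the acid-labile subunit, and Pappa2 were in no state well above background with both arrays.

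Of the relatives that share the IGFBP domain, Kazald1 rose in both genotypes (1.85 each) and was lower in KO at both densities (-1.16 each). Crim1 fell in both (-2.33 in WT and -1.43 in KO). Esm1, an endothelial secreted proteoglycan, rose by 3.05 ± 0.03 in WT and was not well above background in KO. Its signal in WT was at least 3.24-fold higher than in KO at low density and at least 26.3-fold higher at high density. For the difference of the density effects 18 pathway genes were tested, with 2 called higher (Timp1 and Htra1) and 1 lower (Igf1), beside 3.78% and 4.22% of all tested probes, and 5 were called without replicate 2. For genotype 4 were called higher and 4 lower of 18 at low density, beside 6.86% and 7.07%, and 3 in each direction of 19 at high density, beside 6.41% and 6.62%.

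**Figure D4:**
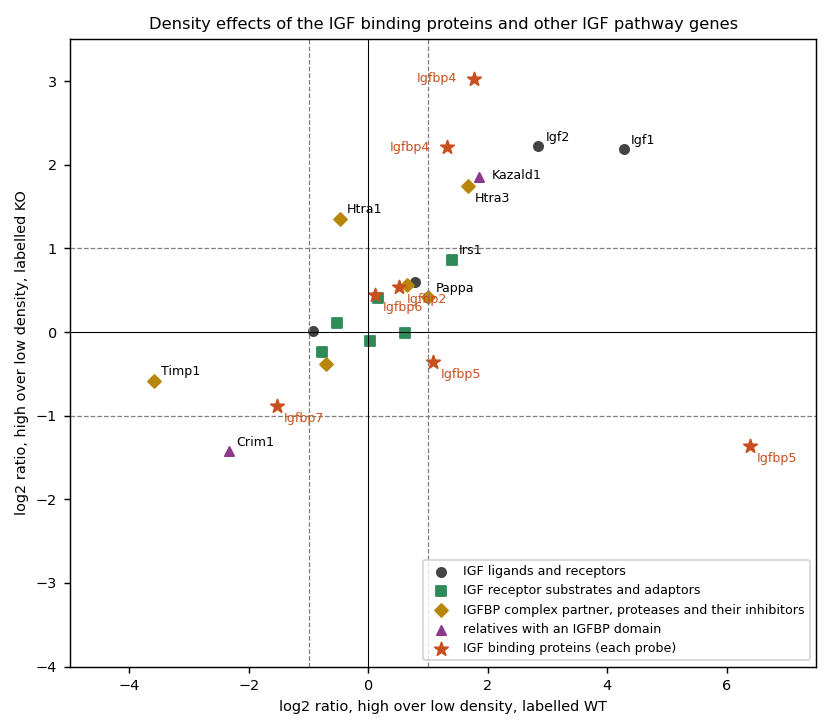
Log2 ratio of high over low density in labelled WT (x axis) and labelled KO (y axis) for the IGF binding protein probes (stars) and the other IGF pathway genes (1 probe each) that were tested in both genotypes, with dashed lines at 2-fold. Both Igfbp5 probes lie above 0 in WT and below 0 in KO, A_52_P281702 past 2-fold in each (6.38 and -1.36), and Igf1, Igf2 and Igfbp4 lie in the upper right.

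The genes whose 4 state levels ran most like those of a member were found by Euclidean distance, after each was centred on its own mean, among 24591 probes. For Igfbp5 at A_52_P281702 they were Adamts1 (distance 2.16), Phex (2.27) and Mt1 (2.32), on a range of 6.38 for Igfbp5 itself. Adamts1, a secreted metalloprotease of the ADAMTS family, had mean log2 intensities of 11.05 and 15.30 in WT and 15.30 and 13.28 in KO at low and high density. For Igfbp3 at A_52_P253179 they were Lrrc15 (1.29), Dlk1 (1.58) and Prss12 (2.04), where the Igfbp3 signal in both WT states is at background and its true distance is not measured. For Igfbp2 they were Tusc1 (0.09), Zfp422 (0.23) and Ehd3 (0.24), and for Igfbp4 at A_52_P257502 they were Ppap2b, now Plpp3 (0.37), BC023892 (0.40) and Sema5a (0.46). The 4 states come from the same 4 arrays, so likeness over them is a description.

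The label of embryonic fibroblasts was set against marker genes. All 9 fibroblast markers were well above background in every state, and their summed log2 level, which the strongest signals dominate, ran from 18.73 to 19.02 in WT and from 18.76 to 19.50 in KO. Within the list Pdgfra was 22.0-fold higher in KO at low and 8.56-fold higher at high density, and Fn1 was 2.46-fold lower at low and 2.51-fold higher at high density. Col1a2 was called lower at low density, at the 2-fold limit, and at high density Thy1 was 2.62-fold higher and S100a4 2.56-fold lower. With density 3 of the 9 were called higher and 2 lower in WT, beside 7.61% and 5.72% of all tested probes. In KO 5 were called higher and 1 lower, beside 5.9% and 3.73%. Among them Col3a1 rose 17.7-fold in WT and 10.8-fold in KO, and Fn1 fell 3.04-fold in WT and rose 2.04-fold in KO. S100a4 fell 5.49-fold in KO. Of 7 macrophage markers 3 were well above background in each WT state and 4 in each KO state, with a summed level of 9.90 to 10.05 in WT and 10.75 to 12.46 in KO. Lyzs, now Lyz2, had mean log2 levels of 6.38 and 7.38 in WT and 10.28 and 12.13 in KO at low and high density, and was 27.0-fold higher in KO at high density. Csf1r was above background in both KO states and in WT at low density alone, Cd68 in all states, and Cd14 in all states and lower in KO (3.47-fold and 3.00-fold). Ptprc, Emr1 and Itgam were not well above background in any channel. The summed level of 5 neural markers was 13.39 to 13.42 in WT at low and 11.40 to 11.42 at high density, and 10.26 to 10.34 in KO at low and 9.50 to 9.80 at high density, with Nes and Tubb3 above background and Sox2 and Gfap in no channel. Nes was lower in KO (-6.20 at low and -3.77 at high density), while Tubb3 gave -0.01 and 0.11. Of 6 endothelial markers Kdr alone was above background on both arrays of a state, WT at low density, and Pecam1, Cdh5, Tie1 and Emcn were so in no channel. Of 6 epithelial markers Krt14 was above background in all states and Krt18 in WT at low density alone, while Cdh1, Tacstd1 and Krt8 were so in no channel. Of 5 chondrocyte markers 3 (Col2a1, Sox9 and Col11a2) were above background in each state, and their sum was lower in KO at low density (10.79 to 11.04) than in the other states (12.64 to 13.13). Of the 3, only Col2a1 was lower in KO than in WT at low density, with a log2 ratio of -3.23, against 0.45 for Sox9 and 0.11 for Col11a2. Of 5 muscle markers Acta1 alone was above background on both arrays of a state, with a sum of 13.10 to 13.13 in WT at low and 11.05 to 11.16 at high density, and of 12.98 to 13.08 and 12.01 to 12.04 in KO. The part of these shifts in the Igfbp values was not tested, and in bulk RNA fewer cells of a type and less RNA per cell cannot be told apart.

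The offset added in background correction makes ratios of dim probes smaller. All called members kept their direction under every alternative run.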

How the data were processed

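The members and gene lists were chosen with earlier results of these data known. Per the file headers, the authors extracted the arrays with Agilent Feature Extraction (10.5.1.1 in the submitters' processing notes), and the deposited scanner files hold raw mean and local background intensity for Cy3 and Cy5, processed intensity, flags of 0 or 1 and a log10 ratio of Cy5 over Cy3. The deposited series matrix holds the same log10 ratio turned to high over low density (equal within a relative tolerance of 0.006 for 100% of features).

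From raw intensity, background was corrected by normexp (offset 50) and arrays were normalised by loess (R 4.3.3, limma 3.58.1, data.table in version 1.17.8). Controls were left out, as were the 107 to 224 features per array with an outlier flag. Features of a probe were averaged, and log2 ratios were averaged over the dye swap. For genotype comparisons, and for the levels printed, single channels were scaled by Aquantile, and genotypes were compared within a dye. A probe was called at 2-fold if both arrays gave that direction. No p-value was computed, since there was 1 replicate per genotype and density. From the pathway lists 1 gene was left out, also from the counts, and is not reported here. All member probes were named, the pathway genes past 2-fold (at most the 6 largest per direction) and the 3 genes most like each member that ranged over at least 2 on the log2 scale. Scripts used Python 3.11.15 (numpy 2.4.6, pandas 2.3.3, matplotlib 3.10.9) and were tested on simulated data. Promoters are from RefSeq (GRCm38.p6), used for no array position. Alternatives were the background correction, normalisation, filter, probe choice, fold limit, scaling and each replicate left out. The dye swap measures technical error alone.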

Additional observations from a re-analysis of the deposited data

Results flagged for a closer look

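Igfbp5 moved in opposite directions with density in the 2 genotypes on every array. At probe A_52_P281702 the density effect was above 0 on both arrays labelled WT and below 0 on both labelled KO, a difference of -7.74 (KO minus WT, log2 scale), which was -8.45 at an offset of 0 and -8.64 in the series matrix. At probe A_51_P204153 the signs were the same, with a difference of -1.45. Its signal in WT at low density was not well above background, so this size is not a measured one (-3.48 at an offset of 0 and -5.23 with the processed signals). With 1 replicate per genotype and density, the difference was not tested.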

How the results depend on the processing

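The 24 called member values were recomputed under the alternatives that give a value for each probe, 154 values in all. Each kept its sign, and 150 stayed at 2-fold or more. Of the 4 that did not, 1 was the Igfbp4 probe A_52_P257502 between genotypes at low density (-0.93 without scaling between arrays, -1.18 as reported). The other 3 were Igfbp7 between genotypes at high density (1.06 as reported), which was 0.86 with median centring, 0.98 with quantile normalisation of single channels and 0.95 without replicate 2. Of 18 tested member values that were not called, 7 reached 2-fold under at least 1 alternative. The causes were not tested. The count of called probes for density went from 5 to 3 in WT and from 6 to 3 in KO with 1 probe a gene, which leaves 7 probes to count. For the difference of the density effects it went from 3 to 6 with no filter on dim probes and to 5 at a 1.4-fold limit, and at high density the genotype count went from 6 to 3 with every channel well above background. Without replicate 1 or 2 the counts ranged from 5 to 5 (density, WT), 6 to 6 (density, KO), 3 to 3 (difference), 4 to 4 (genotype, low density) and 6 to 6 (genotype, high density). The count of called pathway genes for the difference went from 3 to 6 with all probes of each gene and to 11 at a 1.4-fold limit. Over all tested probes, the share of calls that were higher at high density was 57.1% in WT and 61.3% in KO, and 43.9% and 40.3% with median centring, which moved the median of all tested probes in KO from 0.01 to -0.09. Without scaling between arrays the share of calls higher in KO rose from 49.2% to 72.3% at low density and from 49.2% to 70.2% at high density, and the median of all tested probes from 0.04 to 0.27. No paired analysis was possible because the replicate numbers mark dye orientations of 1 replicate and no test was run. Dim probes (Igfbp1, Igfbp3 in WT) have no measured level here.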
